A study of Mus musculus with 2 samples.

Results

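The genes described here are 27 immediate early genes and 10 heat shock genes, 37 of the 27998 genes in the count matrices, taken by symbol from a list of transcripts that respond when a tissue is taken apart. All 37 symbols were found. Unique molecular identifiers (UMIs, each standing for 1 captured transcript molecule) were counted per cell in pancreas from mouse embryos of day 18.5, in cells with at least 500 detected genes and at most 10% mitochondrial UMIs. The knockout library was made from 1 Dpy30∆P pancreas and the control library from 1 control pancreas, both of strain C57BL/6. DPY30 is a core subunit of the complexes that methylate histone H3 at lysine 4. The sources used here do not state the Cre driver, the deleted exons or the genotype of the control. Both pancreata were digested for 20 min at 37 °C in 0.25% trypsin with EDTA. Cells were then resuspended in 250 µL for the knockout and 500 µL for the control.

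Immediate early genes are transcribed within minutes of a stimulus, without new protein synthesis, from promoters kept ready for factors such as SRF and CREB. Many encode transcription factors (the FOS, JUN, EGR, NR4A and KLF families), and others encode the phosphatases and decay factors that shut the response down. Heat shock genes encode chaperones that hold or refold proteins, and the inducible ones are switched on by the factor HSF1 at heat shock elements. Warm enzymatic digestion is a known trigger of both programmes in single-cell work, so their levels are commonly read as a sign of how cells were handled.

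After filtering, 3219 knockout and 2607 control cells remained, with medians of 6624 and 6828 UMIs per cell. Classes were named from marker genes, with the 37 genes kept out of the clustering, and 7 classes had at least 50 cells in each library. In knockout and control these were mesothelial-like (187 and 215 cells), mesenchymal-like (963 and 729), macrophage-like (66 and 66), ductal-like (317 and 500), endothelial-like (118 and 179), endocrine-like (234 and 371) and acinar-like cells (752 and 109). With 1 library in each group there is no replicate spread and no test. Intervals are 95% and cover counting error only, and a difference between the libraries may be one between these 2 pancreata. The libraries also differed in sex. Xist, which coats the inactive X chromosome, had 46115 UMIs in the knockout library and 1 in the control library, and the Y-linked Ddx3y had 0 and 1569. Sex, genotype and library cannot be told apart. Dpy30 itself stood at 143 CPM (the gene's UMIs over all UMIs of the same cells, scaled to one common total) in the knockout library and 113 CPM in the control library, so its 3′ tags check neither the deletion nor the labels. The libraries shared 27 cell barcodes, of which 12 passed the filters in each.

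These promoters are shown because the results turn on these genes and because they carry the sites that the 2 programmes are known for. The heat shock genes Hspa1a, Hspa1b and Hspb1 have a pair of inverted heat shock units (GAANNTTC or TTCNNGAA), Fos has the core of a cAMP response element (TGACGT) and Egr2 has a serum response element (a CArG box). Each line gives the 150 bases before a RefSeq transcription start on the gene's own strand, in GRCm38.p6, with the motif in capitals. Hspa1a lies on the minus strand at chr17:34972157-34972306, Hspa1b on the minus strand at chr17:34959239-34959388, Hspb1 on the plus strand at chr5:135887769-135887918, Fos on the plus strand at chr12:85473740-85473889 and Egr2 on the plus strand at chr10:67537416-67537565.
Hspa1a: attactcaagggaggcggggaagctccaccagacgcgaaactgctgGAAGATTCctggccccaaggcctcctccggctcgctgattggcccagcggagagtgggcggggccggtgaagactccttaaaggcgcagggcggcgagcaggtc
Hspa1b: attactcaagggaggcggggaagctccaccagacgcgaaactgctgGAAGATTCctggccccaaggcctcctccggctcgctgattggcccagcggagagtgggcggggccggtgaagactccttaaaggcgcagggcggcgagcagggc
Hspb1: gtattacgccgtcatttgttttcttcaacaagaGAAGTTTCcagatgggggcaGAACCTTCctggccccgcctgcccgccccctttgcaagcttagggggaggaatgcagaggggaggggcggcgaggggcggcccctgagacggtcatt
Fos: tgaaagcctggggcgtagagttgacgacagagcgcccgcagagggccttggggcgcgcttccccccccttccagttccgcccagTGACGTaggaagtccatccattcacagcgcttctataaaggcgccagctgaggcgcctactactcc
Egr2: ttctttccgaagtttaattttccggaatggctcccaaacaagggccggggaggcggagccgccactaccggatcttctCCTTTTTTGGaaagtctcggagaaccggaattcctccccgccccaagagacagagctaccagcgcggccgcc

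Counted from the start, the capitals lie from -104 to -97 in Hspa1a and Hspa1b, and from -66 to -61 in Fos. The Hspa1a and Hspa1b windows were identical at 149 of 150 bases, and at 247 of the 250 bases searched. The genes lie 10120 bases apart on chromosome 17. Their 3′ ends, which the tags come from, do differ: 0 of the 451 possible 50-base words in the last 500 bases of the Hspa1a transcript also occurred in Hspa1b, against 58.8% of words over the whole transcript. Hspe1 and Hspd1, the mitochondrial chaperonin pair, are transcribed away from each other from overlapping starts. Their shared region held 2 overlapping matches to the full heat shock element of 3 inverted units (the pair with a further inverted unit at the same spacing). Together they make a run of 4 units, given here in capitals for Hspe1 on the plus strand at chr1:55088053-55088082.
Hspe1: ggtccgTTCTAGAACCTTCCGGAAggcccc

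RefSeq promoters were matched for 30 of the 37 genes (Cyr61 under its current name, Ccn1), and the 250 bases before each start were searched on both strands. The full element of 3 units was present in 2 of 8 heat shock genes (Hspd1 and Hspe1), against 0.514% of all 27025 genes with a promoter in the table. The pair of units, which the full element also contains, was present in 7 of 8 heat shock genes and 4 of 22 immediate early genes, against 14.5% of all genes. These heat shock counts are not of separate sites. Hspd1 and Hspe1 were counted for the site they share, and Hspa1a and Hspa1b have near-identical windows. Of the 8, Dnajb1 had no match in its windows. TGACGT was present in 5 of 22 immediate early genes (Fos, Atf3, Egr2, Dusp1 and Cyr61), against 7.29% of all genes. A CArG box was present in 2 of 22 (Egr2 and Zfp36), against 1.62% of all genes. These matches describe letters in a window and were not set against binding data. Egr1, Egr3, Ier2, Myc, Ctgf, Hspa8 and Hsp90aa1 had no matched promoter, and sites beyond the 250 bases were not searched. The lists therefore do not show that an unnamed gene lacks a site.

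The immediate early genes were the larger share of RNA and varied most between cell classes. Their sum was 16413 CPM in mesothelial-like, 15094 in macrophage-like, 13077 in mesenchymal-like, 9800 in ductal-like, 9232 in endothelial-like, 5865 in endocrine-like and 3822 in acinar-like cells of the knockout library. The control library gave 12882, 19921, 12303, 11575, 8818, 4132 and 2985 CPM in the same classes. The order of the classes was the same in both libraries but for the first 2 places, with mesothelial-like cells highest in the knockout library and macrophage-like cells highest in the control library. From the lowest class to the highest, the sum spanned 4.29-fold in the knockout library and 6.67-fold in the control library. These values are shares of all UMIs of a class, so abundant transcripts such as acinar enzymes or islet hormones lower them. The order and the spans were not recomputed without such genes.

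The sum of the heat shock genes varied less across classes, and Hspa8 was the largest share of it. The sum lay between 2380 CPM in mesenchymal-like and 3955 CPM in ductal-like cells of the knockout library, and between 2405 and 3674 CPM in the same classes of the control library. That is a span of 1.66-fold in the knockout library and 1.53-fold in the control library. Single heat shock genes varied more, with a median span of 3.86-fold in the knockout library and 3.14-fold in the control library, against 11.3-fold and 19.0-fold for single immediate early genes. Between the libraries, the heat shock sums differed by less than the immediate early sums. The knockout over control ratio of the heat shock sum ran from 0.901 (0.836 to 0.971) in macrophage-like to 1.10 (1.07 to 1.14) in endocrine-like cells. The ratio of the immediate early sum ran from 0.758 (0.734 to 0.782) in macrophage-like to 1.42 (1.39 to 1.45) in endocrine-like cells. In between it was 0.847 (0.836 to 0.857) in ductal-like, 1.05 (1.02 to 1.07) in endothelial-like, 1.06 (1.05 to 1.08) in mesenchymal-like, 1.27 (1.25 to 1.30) in mesothelial-like and 1.28 (1.23 to 1.33) in acinar-like cells. Haemoglobin, which none of these classes makes, stood at 20581 CPM in knockout and 9105 CPM in control mesothelial-like cells. It was higher in the knockout library in 6 of the 7 classes and lower in ductal-like cells, at 2867 CPM in knockout and 4143 in control. An alternative setting subtracted the profile of barcodes with under 500 genes, scaled to each class by its haemoglobin, as a stand-in for free RNA. Over the 12 alternatives run for mesothelial-like cells, that one included, the immediate early ratio lay between 1.26 and 1.29. That profile was mostly haemoglobin with few immediate early UMIs, so subtracting it could hardly change the immediate early ratio. The part of haemoglobin and of other free RNA in the ratios was not tested. In barcodes with under 500 genes, haemoglobin was 89.5% of UMIs in knockout and 85.1% in control. They held 266 and 294 CPM of immediate early UMIs, values lowered by the haemoglobin in their totals.

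**Figure D1:**
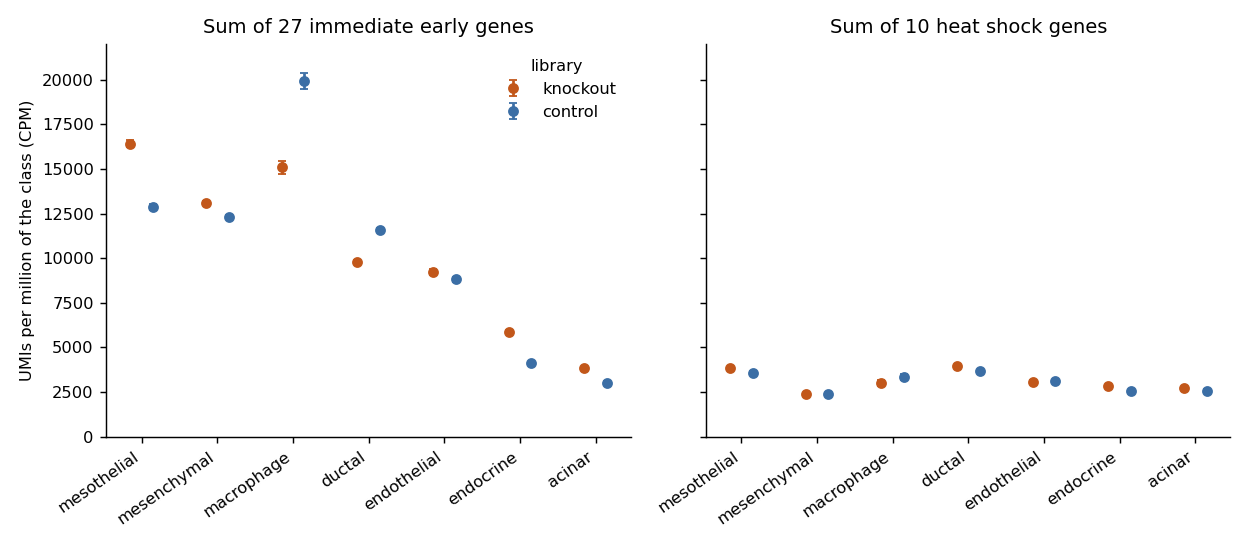
Sum of the 27 immediate early genes (left) and the 10 heat shock genes (right) in CPM of each cell class, in the knockout library (orange) and the control library (blue). Points are 1 library each and bars are 95% counting intervals, mostly smaller than the points. The immediate early sum falls from mesothelial-like and macrophage-like cells to acinar-like cells in both libraries, while the heat shock sum stays between 2380 and 3955 CPM.

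A few genes made up most of each sum. Fos, the inducible partner of JUN in the AP-1 factor, was 25.5% of immediate early UMIs in the knockout library and 22.9% in the control library, and Jun was 11.9% and 11.8%. Ier2, a nuclear regulator induced by growth factors, was 9.94% and 8.52%, and Egr1, a zinc finger factor, was 9.55% and 9.86%. Of the heat shock UMIs, 43.1% in the knockout library and 43.9% in the control library came from Hspa8, the constitutive HSP70. Hspe1 followed with 19.7% in the knockout library, Hsp90aa1, the inducible HSP90, with 14.1%, and Dnaja1, an HSP40 co-chaperone, with 8.38%. At the other end, Egr3 had 11 and 14 UMIs in all knockout and control cells and was too rare to compare in any class.

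Which class a gene was highest in was largely shared by the libraries. All 10 heat shock genes and 17 of the 27 immediate early genes had the same highest class in knockout and control. Macrophage-like cells were highest in both libraries for Dusp1, a MAP kinase phosphatase, at 752 CPM in knockout and 834 in control, and for Zfp36, which promotes decay of cytokine mRNAs, at 1270 and 1466 CPM. They also led for Nfkbia, Ier3, Ier5, Klf6, Nr4a1, Egr2, Dusp2, Rhob, Hspa1a and Hspa1b. Mesothelial-like cells led for Klf4, a zinc finger factor of barrier epithelia, at 407 CPM in knockout and 367 in control. Hspb1, the small heat shock protein HSP27, was mostly found there, with 563 and 596 CPM against 76.7 and 116 CPM in endothelial-like cells, the next class. Ductal-like cells led for Cyr61, a matricellular protein induced through YAP, at 1235 CPM in knockout and 1589 in control, and for Jun at 1586 and 1835 CPM. Mesenchymal-like cells led for Socs3, an inhibitor of cytokine receptor signalling, at 735 and 776 CPM, and for Klf2, at 216 and 277 CPM. Klf2 was nearly absent from ductal-like cells, with 8 UMIs in each library (1.96 and 1.37 CPM).

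**Figure D2:**
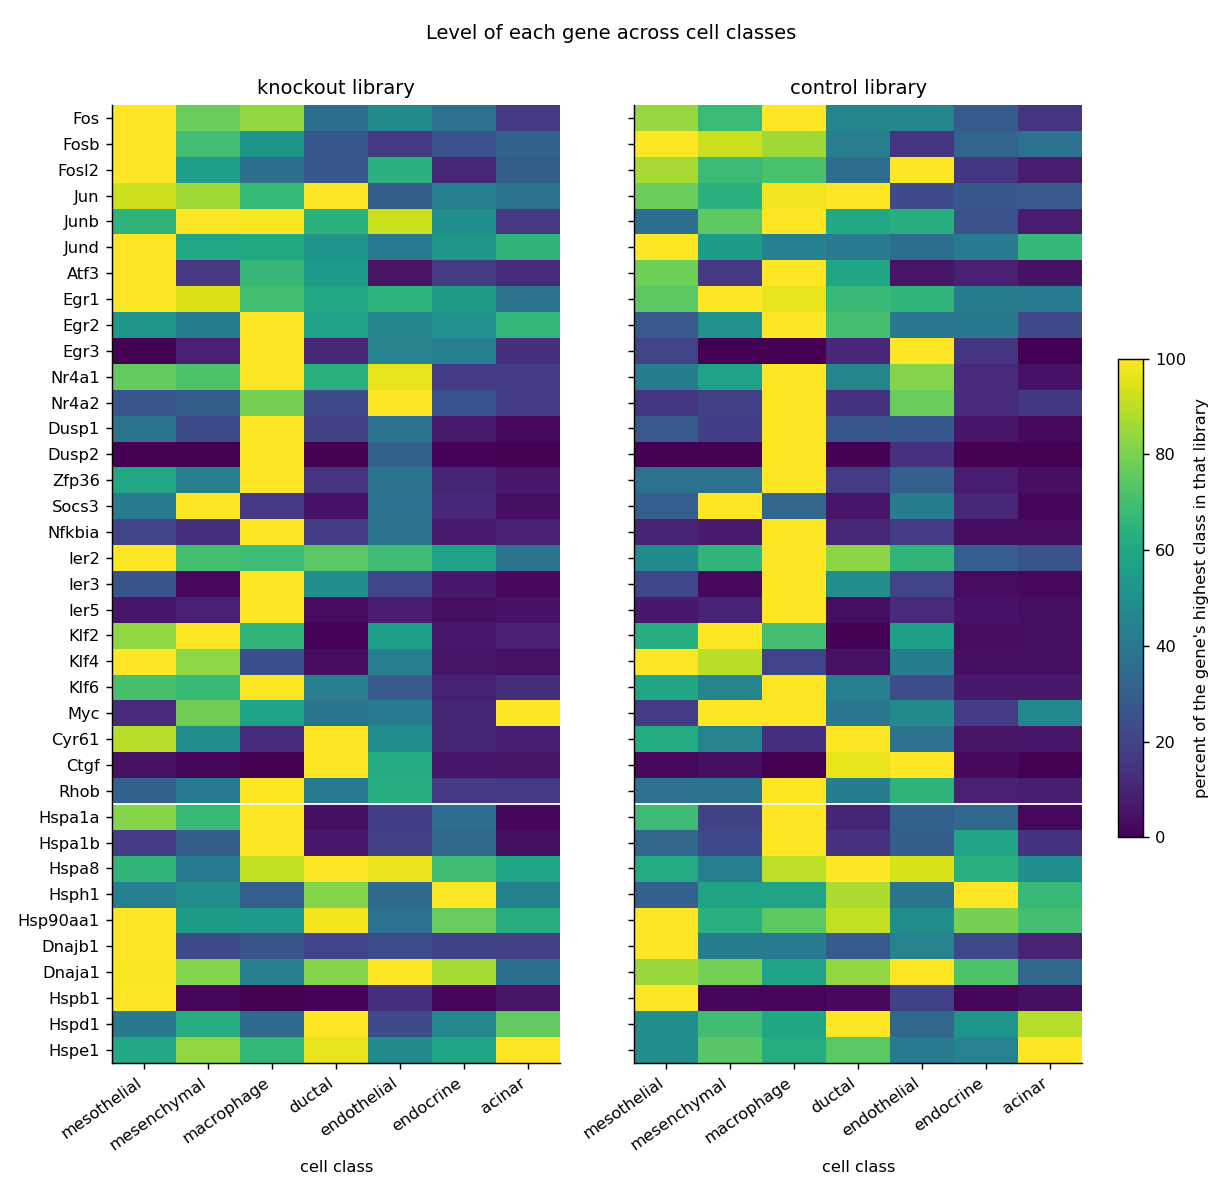
Level of each gene in each cell class as a percent of its own highest class, in the knockout library (left) and the control library (right); immediate early genes are above the white line and heat shock genes below it. Dusp1, Zfp36, Nfkbia and Ier3 peak in macrophage-like cells in both libraries, Socs3 and Klf2 in mesenchymal-like cells, Cyr61 and Jun in ductal-like cells, and Hspb1 and Dnajb1 in mesothelial-like cells.

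The inducible HSP70 genes differed most between the libraries, and Hspa1a was lower in the knockout library in every class but the mesenchymal one. Hspa1a had 3.19 CPM in knockout and 21.8 CPM in control ductal-like cells, 6.84-fold lower (3.86 to 13.2). It had 13.8 and 66.1 CPM in endothelial-like cells of knockout and control, 4.80-fold lower (2.74 to 9.07), and 74.9 and 213 CPM in macrophage-like cells, 2.84-fold lower (1.89 to 4.34). In endocrine-like cells it had 27.0 CPM in knockout and 71.2 in control, 2.64-fold lower (1.98 to 3.56), and in mesothelial-like cells 61.3 and 146 CPM, 2.38-fold lower (1.86 to 3.08). In mesenchymal-like cells it stood at 50.4 CPM in knockout and 41.8 CPM in control, a ratio of 1.20 (0.989 to 1.47) whose interval lies above that of each of those 5 classes. In acinar-like cells the gene was close to the limit of detection, with 10 UMIs in knockout and 5 in control. The sizes of these ratios depended on the processing. With cells thinned to 2000 UMIs the ratio was 0.627 in macrophage-like cells, in place of 0.353, and 0.133 in endothelial-like cells, in place of 0.208. In ductal-like cells it was 0.224 with that thinning and 0.0551 with doublets kept, in place of 0.146.

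Hspa1b, the near-identical copy beside it, was lower in the knockout library in all 7 classes, with an interval below a ratio of 1 in each. It had 5.21 CPM in knockout and 27.6 CPM in control endocrine-like cells, 5.29-fold lower (2.85 to 10.9). In mesenchymal-like cells, where Hspa1a was not lower, it had 4.58 CPM in knockout and 10.5 in control, 2.30-fold lower (1.36 to 3.96). The other 5 classes had 43 or fewer Hspa1b UMIs over both libraries, so these values rest on few molecules. The last 500 bases of Hspa1a share no 50-base word with Hspa1b, but how reads from identical stretches were counted is not stated. The sum of the 2 copies is therefore given too. Its ratio was 0.146 (0.0832 to 0.241) in ductal-like, 0.209 (0.118 to 0.347) in endothelial-like, 0.326 (0.249 to 0.422) in endocrine-like, 0.348 (0.237 to 0.502) in macrophage-like and 0.397 (0.309 to 0.505) in mesothelial-like cells. In mesenchymal-like cells the sum was 55.0 CPM in knockout and 52.4 in control, a ratio of 1.05 (0.876 to 1.26).

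The lower Hspa1a held within finer populations. Alpha-like cells had 49.7 CPM in knockout and 107 in control, delta-like cells 38.6 and 70.8, and beta-like cells 24.2 and 72.0. Endocrine progenitor-like cells had 0 UMIs in knockout and 10 in control. Pericyte or smooth muscle-like cells, of which the knockout library had only 44, had 28.7 CPM in knockout and 255 CPM in control, 8.86-fold lower (4.39 to 20.9). The exception also held within the mesenchymal-like class. Its cluster led by Mfap4 had 45.8 CPM in knockout and 35.9 in control, the one led by Gdf10 45.1 and 41.7, and the one led by Krtdap 63.3 and 50.4.

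Hspa1a was found in few cells of either library, 331 of 3219 in the knockout and 444 of 2607 in the control. In the knockout library 1 cell had at least 10 Hspa1a UMIs, with 12 of 558 UMIs. In the control library 25 cells did, and together they held 360 of the 1295 UMIs. Among control mesothelial-like cells 7 such cells held 121 of 235 UMIs, and among macrophage-like cells 4 held 46 of 90. In control endocrine-like cells the part was smaller, with 45 of 310 UMIs in 4 cells. The counting intervals do not cover such unevenness between cells. With every cell thinned to 2000 UMIs, Hspa1a was found in 1.75% of knockout (0.213 to 6.19) and 10.3% of control (6.21 to 15.8) endothelial-like cells. Without thinning those shares were 3.39% and 16.8%. In endocrine-like cells it was found in 2.99% of knockout (1.21 to 6.07) and 9.78% of control cells (6.95 to 13.3). In acinar-like cells, the class with least Hspa1a, it was found in 0.409% of knockout and 0.962% of control cells, at median depths of 11642 and 6073 UMIs before thinning. The knockout share in ductal-like cells, 0.635%, was close to that floor, against 2.63% in control ductal-like cells. In mesothelial-like cells the shares were 10.3% in knockout and 13.7% in control, and their intervals overlapped widely. The same was true of macrophage-like cells, at 13.8% in knockout (6.53 to 24.7) and 15.9% in control (7.88 to 27.3), and of mesenchymal-like cells, at 8.41% and 7.59%.

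Hspa8, which encodes the HSP70 made without stress, did not follow Hspa1a. It had 1940 CPM in knockout and 1847 in control ductal-like cells, a ratio of 1.05 (1.02 to 1.08), and 796 and 791 CPM in mesenchymal-like cells. Its largest ratio was 1.24 (1.16 to 1.33), in acinar-like cells, with 1147 CPM in knockout and 921 in control. That class includes a cluster of 435 knockout and 2 control cells. Dnajb1, the HSP40 partner of inducible HSP70, differed in both directions. It had 398 CPM in knockout and 276 in control mesothelial-like cells, a ratio of 1.44 (1.27 to 1.64), and 77.2 and 60.4 CPM in endocrine-like cells, a ratio of 1.28 (1.04 to 1.56). In acinar-like cells it had 75.7 CPM in knockout and 26.9 in control, a ratio of 2.82 (1.92 to 4.30). The acinar-like Dnajb1 value rests on that cluster of 435 knockout and 2 control cells. Over the clusters with cells of both libraries Dnajb1 had 27.7 and 25.2 CPM, a ratio of 1.10 (0.691 to 1.81). In mesenchymal-like cells it had 93.1 CPM in knockout and 116 in control, 1.24-fold lower (1.09 to 1.41), and in endothelial-like cells 93.5 and 123 CPM, 1.32-fold lower (1.03 to 1.70).

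**Figure D3:**
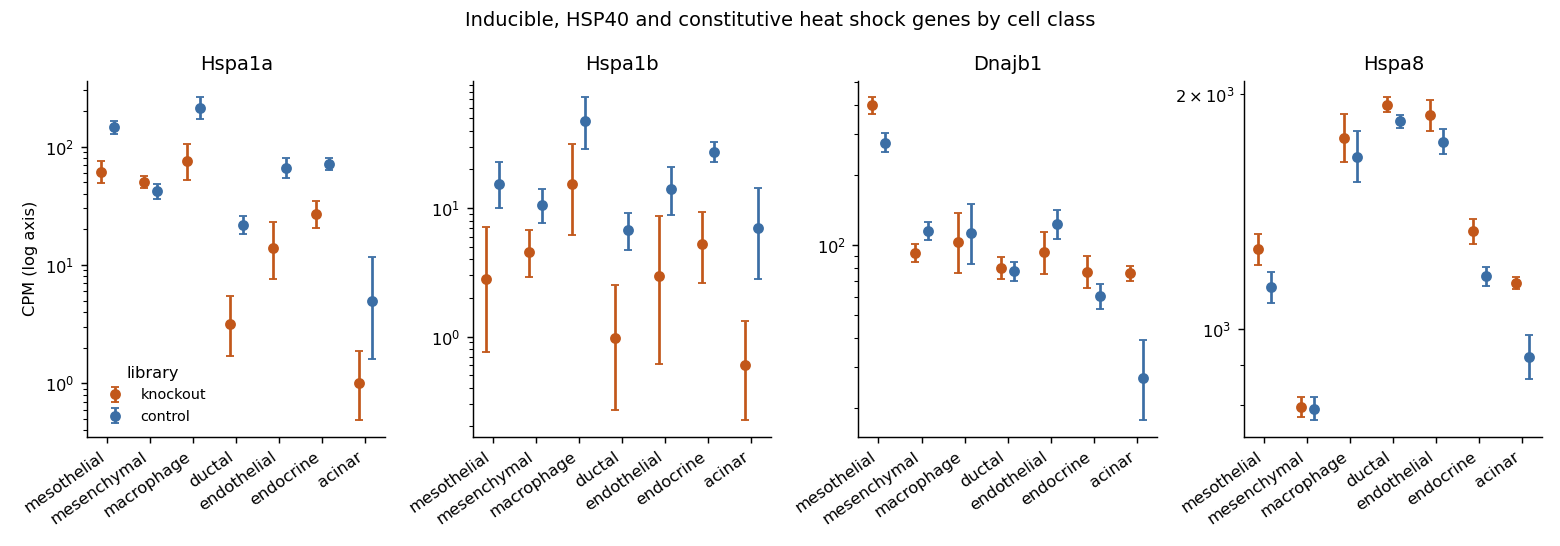
Hspa1a, Hspa1b, Dnajb1 and Hspa8 in CPM of each class on log axes, in the knockout library (orange) and the control library (blue), with 95% counting intervals. Hspa1a is lower in the knockout library in all classes shown but the mesenchymal-like one (50.4 and 41.8 CPM in knockout and control), while Hspa8 differs by at most 1.24-fold.

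Hspb1 was called lower in 3 classes. It was 2.61-fold lower (1.66 to 4.23) in knockout ductal-like cells, at 6.13 CPM in knockout and 16.0 in control, far under its mesothelial-like level. In endothelial-like cells it had 76.7 CPM in knockout and 116 in control, 1.51-fold lower (1.15 to 1.99). In endocrine-like cells it had 6.63 and 11.5 CPM, a ratio of 0.577 (0.295 to 1.06), and in mesothelial-like cells, where it was highest, 563 and 596 CPM. Hspd1, the mitochondrial HSP60, had 349 CPM in knockout and 290 in control ductal-like cells, a ratio of 1.20 (1.12 to 1.29). Hsp90aa1 had 324 and 423 CPM in macrophage-like cells of knockout and control, 1.30-fold lower (1.04 to 1.63). Dnaja1 ratios ran from 0.791 in macrophage-like to 1.27 in endocrine-like cells. Hsph1, an HSP110 exchange factor for HSP70, had at most 37.0 CPM in any class.

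To count genes, a gene was called where its CPM differed by at least 1.5-fold and it had at least 50 UMIs over both libraries in the class. Counts are read against the percent of all genes that met the same rule, since low genes pass it by counting error. In mesothelial-like cells, 4 of 21 measured immediate early genes were called higher in the knockout, against 4.18% of all genes, and Rhob was called lower, against 6.31%. Of 8 measured heat shock genes there, Hspa1a alone was called, lower.

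In mesothelial-like cells the higher genes were Ier2, Fosb, Nr4a1 and Egr2. Ier2 had 1428 CPM in knockout and 668 in control, a ratio of 2.14 (1.99 to 2.30). Fosb, a second FOS partner of JUN, had 712 and 434 CPM, a ratio of 1.64 (1.49 to 1.81), and the orphan nuclear receptor Nr4a1 368 and 219 CPM, a ratio of 1.68 (1.47 to 1.93). Egr2, a zinc finger factor, had 64.1 and 30.4 CPM, a ratio of 2.10 (1.47 to 3.04). Jun, at 1463 and 1422 CPM, was level. Among the genes lower in the knockout, Jund had 72.4 CPM in knockout and 107 in control, and Rhob, a small GTPase, 37.6 and 60.9 CPM. Spread over cells, the control library held the wider range: immediate early genes took a median of 33 of 2000 UMIs in knockout cells, with quartiles at 23 and 45, and 24 of 2000 in control cells, with quartiles at 6 and 39.5. No knockout cell and 9 of 211 control cells had none.

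Macrophage-like cells had the lowest ratio of the immediate early sum. In the knockout, 5 of 21 measured immediate early genes were called lower, against 7.42% of all genes, and none higher, against 6.86%. Over the 21, the median log2 ratio was -0.43, against 0.01 over all genes. Nfkbia, the inhibitor that NF-κB induces against itself, had 600 CPM in knockout and 1358 in control, 2.26-fold lower (1.96 to 2.63). Socs3 had 121 and 257 CPM, 2.12-fold lower (1.52 to 2.99), and Dusp2, a phosphatase of immune cells, 86.0 and 194 CPM, 2.25-fold lower (1.52 to 3.39). Jun had 1062 CPM in knockout and 1799 in control, 1.69-fold lower (1.51 to 1.90), and Atf3, a stress-induced partner of JUN proteins, 871 and 1325 CPM, 1.52-fold lower (1.34 to 1.74). Of the 21, 19 had a ratio below 1 and 2 a ratio above 1. The size of the difference varied between genes, and Fos, at 4113 and 4428 CPM, and Dusp1, at 752 and 834 CPM, differed little. The class held 66 cells in each library.

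Ductal-like cells had lower values of small size across most genes. Of 23 measured immediate early genes, 18 had a ratio below 1, with a median log2 ratio of -0.23, against 0.03 over all genes. Dusp1 was called lower, against 3.83% of all genes, and Nr4a2 was called higher, against 3.76%. Dusp1 had 141 CPM in knockout and 220 in control, 1.56-fold lower (1.41 to 1.72). Junb, a JUN protein with a weaker activation domain, had 747 and 1022 CPM, 1.37-fold lower (1.31 to 1.43), Ier3, a survival factor, 342 and 460 CPM, 1.35-fold lower (1.26 to 1.44), and Cyr61 1.29-fold lower (1.24 to 1.33). Nr4a1 stood apart with 307 CPM in knockout and 236 in control, a ratio of 1.30 (1.21 to 1.41). The makeup of this class differed too, as its cluster led by Cenpf held 156 of 317 knockout and 127 of 500 control cells. With the clusters weighted as in the control library, the ratio of the immediate early sum was 0.894 in place of 0.847.

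In mesenchymal-like cells the libraries were close. Nr4a2 was called higher, against 2.91% of all genes, and Ier5 and Hspa1b lower, against 5.27%. Fos had 3782 CPM in knockout and 3013 in control, a ratio of 1.26 (1.23 to 1.28), and Fosb 496 and 399 CPM, a ratio of 1.24 (1.17 to 1.32). Klf2 had 216 and 277 CPM, 1.28-fold lower (1.18 to 1.40). Endothelial-like cells had 1 immediate early gene called, Fosb, higher against 4.01% of all genes. It had 122 CPM in knockout and 64.9 in control, a ratio of 1.88 (1.44 to 2.46). Their called heat shock genes were Hspa1a and Hspb1, 2 of 8 measured and both lower, against 6.01% of all genes. Klf2, which flow induces in endothelium, had 120 CPM in knockout and 157 in control endothelial-like cells, 1.30-fold lower (1.05 to 1.63).

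Endocrine-like and acinar-like cells cannot be read in the same way, because the median gene itself stood higher in the knockout there: the median log2 ratio over all measured genes was 0.24 in endocrine-like and 0.19 in acinar-like cells. In endocrine-like cells, 4 of 21 immediate early genes were called higher, 19.0% of those measured, against 17.5% of all genes, which is near the background. Hspa1a, Hspa1b and Hspb1 were called lower, 3 of 10, against 4.36% of all genes. The immediate early genes called were Ier2, with 815 CPM in knockout and 417 in control (ratio 1.95, 1.83 to 2.09), Atf3 with 230 and 115 CPM (2.01, 1.77 to 2.28), Ier3 and Cyr61. The makeup of the class differed. The knockout library had 72 endocrine progenitor-like, 66 alpha-like, 73 delta-like and 23 beta-like cells, and the control library 57, 98, 95 and 121. Beta-like cells had the lowest immediate early sum of the 4 as a share of all UMIs, hormone transcripts included, at 2646 CPM in knockout and 2341 in control. With the clusters weighted as in the control library, the ratio of the immediate early sum was 1.11 in place of 1.42, and that of the heat shock sum was 0.934 in place of 1.10.

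Within the endocrine-like clusters the directions differed. In alpha-like cells, which make glucagon, the immediate early sum was 5718 CPM in knockout and 3594 in control, a ratio of 1.59 (1.51 to 1.68). There 6 of 14 measured genes were called higher, against 12.5% of all genes, among them Fos, with 1968 CPM in knockout and 1171 in control, and Ier2, with 737 and 335 CPM. Hspa1a was the gene called lower, against 6.78%. In delta-like cells, which make somatostatin, the sum was 6411 CPM in knockout and 6910 in control, a ratio of 0.928 (0.891 to 0.966). There 6 of 16 genes were called lower, against 6.49% of all genes, among them Zfp36, with 123 CPM in knockout and 200 in control, and none higher, against 7.11%. In progenitor-like cells the sums were 7341 CPM in knockout and 7110 in control. There 1 of 16 genes, Egr2, was called higher, against 5.41% of all genes, and none lower, against 6.27%.

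In acinar-like cells, 8 of 24 measured immediate early genes were called higher, 33.3%, against 23.5% of all genes, and Jund lower, against 6.73%. Over the clusters with cells of both libraries (317 knockout and 107 control cells), where the median log2 ratio of all genes was 0.04, the count was 9 of 22, against 8.86% of all genes, with Hsph1 called lower, against 5.66%. There Nr4a1 had 63.8 CPM in knockout and 26.3 in control, a ratio of 2.43 (1.60 to 3.85). Atf3 had 137 and 66.2 CPM, a ratio of 2.07 (1.59 to 2.74), Egr2 47.5 and 25.2 CPM, a ratio of 1.89 (1.22 to 3.04), and Klf6 109 and 62.0 CPM, a ratio of 1.75 (1.33 to 2.36). Over the whole class the ratios of Nr4a1 and Egr2 were 3.39 (2.28 to 5.28) and 3.36 (2.24 to 5.27). The control values of these genes rest on 24 to 63 UMIs. Acinar-like cells had the lowest immediate early sum of all classes in both libraries, as a share of all UMIs that abundant enzyme transcripts would lower.

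**Figure D4:**
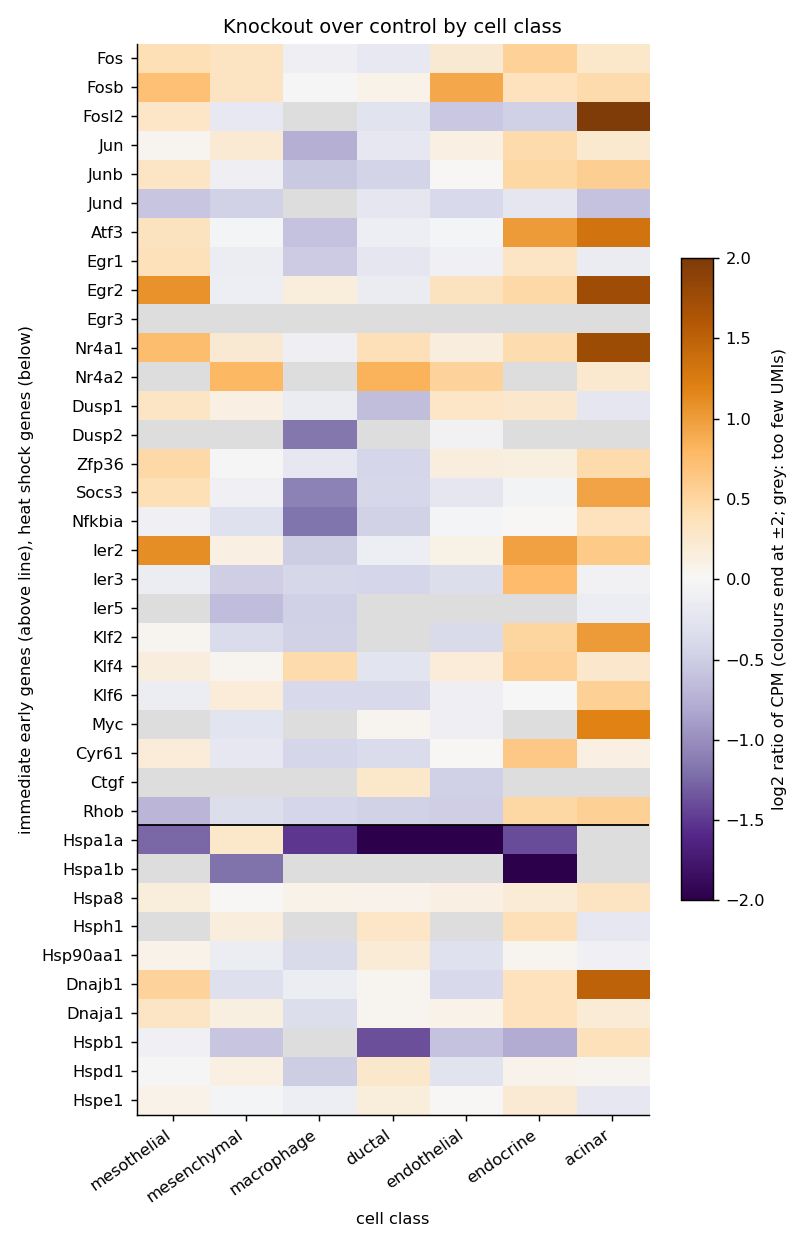
Log2 ratio of knockout over control CPM for each gene (rows) in each cell class (columns), with immediate early genes above the line and heat shock genes below it; grey marks under 50 UMIs over both libraries. Hspa1a is below 0 in 5 of the 6 classes where it was measured, and most immediate early genes are above 0 in mesothelial-like, endocrine-like and acinar-like cells and below 0 in macrophage-like and ductal-like cells.

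Per cell, the classes lay in nearly the same order as in the sums. In 2000 UMIs, the median number of immediate early UMIs was 32 in knockout and 42 in control macrophage-like cells, 26 and 25 in mesenchymal-like, 20 and 23 in ductal-like and 17 and 17 in endothelial-like cells. It was 11 and 8 in endocrine-like and 8 and 5 in acinar-like cells. The distributions of the libraries overlapped in every class.

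**Figure D5:**
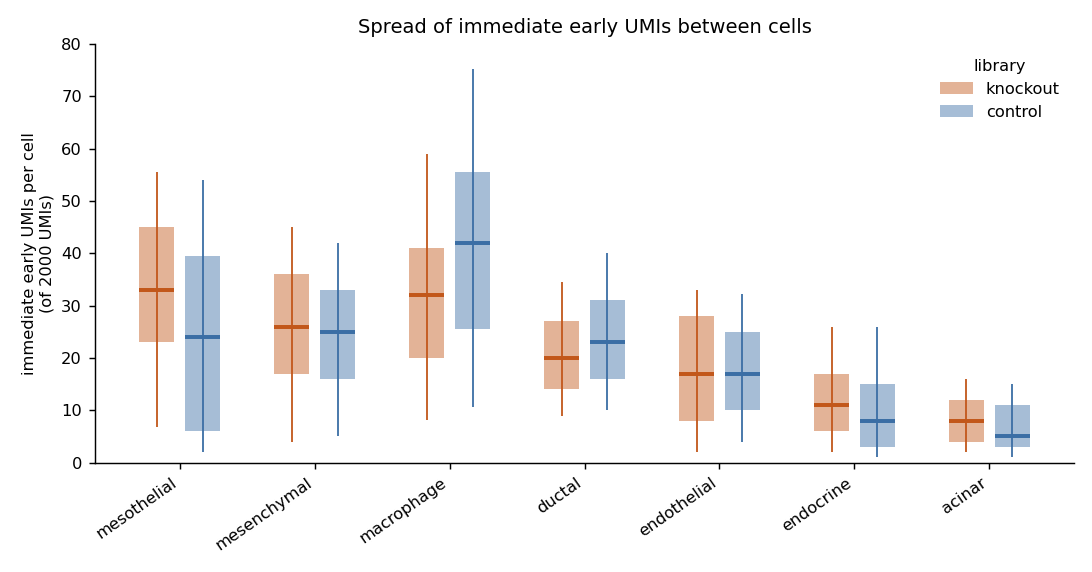
Immediate early UMIs per cell, with each cell thinned to 2000 UMIs, by class in the knockout library (orange) and the control library (blue). Boxes span the quartiles, thick lines are medians and thin lines run from the 10th to the 90th percentile of cells; the boxes of the libraries overlap in every class, and the lower quartile of control mesothelial-like cells, at 6, lies far below that of knockout ones, at 23.

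Other genes of the same pathways were counted by the same rule, from 66 further immediate early and stimulus genes, 58 further heat shock and chaperone genes and 20 upstream kinases and factors. In macrophage-like cells, 9 of 26 measured genes of the first list were called lower, against 7.42% of all genes, and 1 higher, against 6.86%. Among them Cxcl1, a neutrophil chemokine, had 26.5 CPM in knockout and 142 in control, 5.36-fold lower (2.85 to 10.9), and Nfkbiz, an NF-κB cofactor, 304 and 619 CPM, 2.03-fold lower (1.65 to 2.52). In mesothelial-like cells 5 of 35 were called higher, against 4.18% of all genes, and 7 lower, against 6.31%. In endocrine-like cells 12 of 42 were called higher, against 17.5%, and in acinar-like cells 15 of 43, against 23.5%. Btg2, an antiproliferative gene, had 1306 CPM in knockout and 773 in control mesothelial-like cells, a ratio of 1.69 (1.57 to 1.82). Id3, an inhibitor of bHLH factors, had 249 and 471 CPM in the same class, 1.89-fold lower. Of the further heat shock genes, 0 of 50 were called in mesothelial-like cells, where 4.18% of all genes were called higher and 6.31% lower. In ductal-like cells 1 of 54 was called, Cryab, a small heat shock protein, lower, against 3.83%. In macrophage-like cells 3 of 29 were called lower, against 7.42%, and 1 higher. In endocrine-like cells 8 of 54 were called higher, against 17.5%, and 3 lower, against 4.36%, and in acinar-like cells 4 of 53 were called higher, against 23.5%. Hsp90ab1, the constitutive HSP90, had ratios of 1.12 to 1.13 in the mesothelial-like, mesenchymal-like, macrophage-like and ductal-like classes. Hspa5 and Hsp90b1, chaperones of the endoplasmic reticulum, had ratios of 0.644 and 0.624 in endocrine-like cells and 0.789 and 0.783 in acinar-like cells. The makeup of these classes differed between the libraries. Within the endocrine-like clusters, both genes were called lower in delta-like cells but not in alpha-like or progenitor-like cells. Their ratios were 1.28 (1.08 to 1.53) and 1.29 (1.07 to 1.56) in endothelial-like cells, and Hsp90b1 had a ratio of 1.46 (1.18 to 1.81) in macrophage-like cells. Among upstream factors, Srf had 44.6 CPM in knockout and 26.1 in control mesothelial-like cells, a ratio of 1.71 (1.14 to 2.58).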

How the data were processed

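Both libraries are 10x Chromium 3′ v2 libraries. The authors deposited raw UMI counts per gene and barcode, made with Cell Ranger 3.0.0 per the file headers; the submitters' processing notes name the genome build GRCm38 (mm10). The authors' deposited table of cluster genes gives p-values, log fold scores and fractions of cells, and only gene places in it were used here. No strand or multi-mapping setting is given in the sources used here.

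Barcodes with at least 500 genes and at most 10% mitochondrial UMIs were kept, and 38 knockout and 26 control doublets called by Scrublet (scanpy 1.11.5) were removed. Of 4779 knockout and 3986 control barcodes, with 33048640 and 25398522 UMIs, 1465 and 1290 had too few genes and 57 and 63 too many mitochondrial UMIs. Cells were clustered on 2000 variable genes without the members, 30 components and Leiden resolution 1 into 27 clusters. A cluster took a class name from at least 3 fixed markers among its 50 leading genes. UMIs were summed per library and class and divided by the class total (CPM), with exact Poisson intervals, and ratios had exact conditional binomial intervals. Shares had exact Clopper-Pearson intervals, with cells thinned to 2000 UMIs. A call needed a 1.5-fold difference and 50 UMIs over both libraries. Genes with values are the 3 of each arm furthest each way from a ratio of 1 in a class by the interval bound nearest 1, the 4 most abundant of each arm, and each gene's highest class; others were named after their values were seen. The members, lists and rules were chosen with earlier results of these data known. The script was tested on simulated data. Promoters are from RefSeq (GRCm38.p6).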

Additional observations from a re-analysis of the deposited data

Results flagged for a closer look

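Atf3 was called in opposite directions in different classes. Its ratio of knockout over control was 2.01 (1.77 to 2.28) in endocrine-like cells, with 230 CPM in knockout and 115 in control, and 2.50 (1.95 to 3.27) in acinar-like cells, with 160 and 63.7 CPM. In macrophage-like cells it was 0.657 (0.576 to 0.749), with 871 CPM in knockout and 1325 in control. Socs3 had a ratio of 1.94 (1.15 to 3.50) in acinar-like cells, from 286 knockout and 15 control UMIs, and of 0.471 (0.334 to 0.657) in macrophage-like cells, from 55 and 109 UMIs. Over the acinar-like clusters with cells of both libraries, the Socs3 ratio was 0.992 (0.546 to 1.91). With 1 library in each group, the differences between classes were not tested.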

How the results depend on the processing

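Of 703 values recomputed under 19 settings, 571 stayed within the counting interval of the main value (for counts, within 1.5 times). The other 132 moved further. Of the ratios followed, none that differed by at least 1.5-fold changed direction. Those ratios were the sums, Hspa1a and, in each class, the gene of each arm furthest each way from 1. Other called genes, Socs3 in acinar-like cells among them, were not followed. The ratio of the immediate early sum kept its side of 1 in all alternatives run in 6 classes and crossed it in 2 of 12 in endothelial-like cells. That of the heat shock sum crossed it in 3 of 13 in mesenchymal-like, 3 of 13 in endocrine-like and 6 of 14 in acinar-like cells. Hspa1a kept its side in every alternative run in all 7 classes, with ratios from 0.0551 to 0.224 in ductal-like, 0.133 to 0.211 in endothelial-like, 0.262 to 0.432 in endocrine-like, 0.292 to 0.627 in macrophage-like, 0.42 to 0.536 in mesothelial-like, 0.178 to 0.425 in acinar-like and 1.13 to 1.22 in mesenchymal-like cells. The cause of each change was not tested. With at least 1000 detected genes per cell, the immediate early ratio was 1.04 in mesenchymal-like and 0.795 in macrophage-like cells and genes called lower numbered 4 in mesenchymal-like, 1 in endothelial-like and 0 in acinar-like cells. With at most 5% mitochondrial UMIs, the immediate early ratio was 1.08 in mesenchymal-like, 0.863 in ductal-like, 1.51 in endocrine-like and 1.22 in acinar-like cells, the heat shock ratio was 1.15 in endocrine-like cells and genes called higher numbered 1 in macrophage-like and 8 in endocrine-like cells. With doublets kept, the immediate early ratio was 0.788 in macrophage-like, 0.899 in ductal-like, 1.01 in endothelial-like and 1.57 in endocrine-like cells, the heat shock ratio was 1.05 in ductal-like and 1.2 in endocrine-like cells, genes called higher numbered 0 in ductal-like and 7 in endocrine-like cells and genes called lower numbered 0 in acinar-like cells. At Leiden resolution 0.5, the immediate early ratio was 0.793 in macrophage-like and 0.88 in ductal-like cells, the heat shock ratio was 1.02 in ductal-like cells and genes called lower numbered 1 in ductal-like cells. At Leiden resolution 2, the immediate early ratio was 1.11 in mesenchymal-like and 0.869 in ductal-like cells, the heat shock ratio was 0.885 in acinar-like cells and genes called lower numbered 1 in mesenchymal-like and 0 in acinar-like cells. With the members among the clustering genes, the immediate early ratio was 1.08 in mesenchymal-like and 0.881 in ductal-like cells and the heat shock ratio was 1.02 in ductal-like cells. With each library clustered alone, the immediate early ratio was 1.14 in mesenchymal-like and 0.795 in macrophage-like cells, the heat shock ratio was 1.04 in ductal-like and 0.91 in acinar-like cells, genes called higher numbered 0 in ductal-like cells and genes called lower numbered 4 in mesenchymal-like and 0 in acinar-like cells. Scaled without enzyme, hormone, haemoglobin, mitochondrial and ribosomal genes, the immediate early ratio was 1.23 in endocrine-like and 1.16 in acinar-like cells, the heat shock ratio was 0.958 in endocrine-like and 0.96 in acinar-like cells, genes called higher numbered 2 in endocrine-like cells and genes called lower numbered 1 in endothelial-like cells. Scaled to the median ratio of all genes, the immediate early ratio was 0.829 in ductal-like, 1.2 in endocrine-like and 1.12 in acinar-like cells, the heat shock ratio was 1.05 in ductal-like, 0.93 in endocrine-like and 0.93 in acinar-like cells, genes called higher numbered 2 in endocrine-like cells and genes called lower numbered 1 in endothelial-like cells. With cells thinned to 2000 UMIs, the immediate early ratio was 0.874 in ductal-like, 0.992 in endothelial-like, 1.25 in endocrine-like and 1.22 in acinar-like cells, the heat shock ratio was 1.17 in mesothelial-like, 0.939 in endothelial-like and 1.2 in acinar-like cells, genes called higher numbered 0 in mesenchymal-like, 0 in ductal-like, 0 in endothelial-like and 2 in endocrine-like cells and genes called lower numbered 0 in endothelial-like and 1 in endocrine-like cells. With cells weighted equally, the immediate early ratio was 0.983 in endothelial-like, 1.26 in endocrine-like and 1.21 in acinar-like cells and the heat shock ratio was 1.12 in mesothelial-like, 1.02 in mesenchymal-like and 1.12 in acinar-like cells. With a minimum of 20 UMIs, genes called lower numbered 4 in mesothelial-like, 5 in ductal-like, 4 in endothelial-like and 5 in endocrine-like cells. With a minimum of 100 UMIs, genes called higher numbered 0 in ductal-like cells and genes called lower numbered 0 in mesenchymal-like cells. At a 2-fold limit, genes called higher numbered 2 in mesothelial-like, 0 in mesenchymal-like, 0 in ductal-like, 0 in endothelial-like and 1 in endocrine-like cells and genes called lower numbered 1 in mesothelial-like, 1 in mesenchymal-like, 1 in endothelial-like and 0 in acinar-like cells. With clusters weighted as in the control library, an alternative chosen after seeing the data, the immediate early ratio was 1.11 in endocrine-like and 0.894 in ductal-like cells and the heat shock ratio was 0.934 in endocrine-like, 1.03 in ductal-like and 0.91 in acinar-like cells. Without the acinar-like cluster held by the knockout library, also chosen afterwards, the heat shock ratio was 0.987 in acinar-like cells. With no thinning, the difference in the share of cells with Hspa1a (knockout minus control) was -5.76 percentage points in ductal-like and -13.6 percentage points in endocrine-like cells. With cells thinned to 4000 UMIs, the difference in the share of cells with Hspa1a (knockout minus control) was -18.1 percentage points in macrophage-like cells. No paired analysis was possible because each group is 1 library and no test was made. Leaving out a replicate could not be run for the same reason. Precision is limited by the 66 macrophage-like cells in each library, the 109 control acinar-like cells and the few UMIs of Hspa1b.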

Other observations

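The authors' deposited table of cluster genes lists 24 of the 37 genes, 17 immediate early and 7 heat shock, for at least 1 of its 14 clusters. For the cluster whose leading genes are Krt18, Krt23 and Spp1, keratins and osteopontin of ductal cells, it lists 9 of them, with Cyr61 at place 5 of 146 genes.

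The 2 programmes were weakly related from cell to cell. Over cells thinned to 2000 UMIs, Spearman's rho between immediate early and heat shock UMIs ran from -0.08 to 0.27 in the knockout classes and from -0.21 to 0.22 in the control classes. The points are cells of 1 library that share its digestion and a fixed depth, and low counts per cell weaken such a correlation.

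Barcodes left out for more than 10% mitochondrial UMIs also had less Hspa1a in the knockout library, on few UMIs. The 57 knockout ones had 2 Hspa1a UMIs (8.10 CPM) and the 63 control ones had 28 (135 CPM). The cell classes of these barcodes, and how many of them held the Hspa1a UMIs, were not determined. Their immediate early sums were 9248 CPM in knockout and 9994 CPM in control.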
